A study of Mus musculus with 10 samples.

Results

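The estrogen-related receptors and the genes that adjust their activity were followed in the cochlea of newborn mice: 8 genes chosen by name, out of 54532 genes counted. They were the 3 receptors Esrrg, Esrra and Esrrb, the PGC-1 family coactivators Ppargc1a, Ppargc1b and Pprc1, the muscle-enriched regulator Perm1 and the corepressor Nrip1. Each of the 10 libraries came from the soft tissue of both cochleae of 1 female mouse on postnatal day 1. In the 5 control mice both Esrrg alleles were floxed (Esrrgfl/fl), and the 5 mice of the conditional knockout group (cKO) were also Esrrgfl/fl and carried Sox10-Cre, so the floxed alleles are shared by all 10 animals. Sox10-Cre makes the recombinase Cre where regulatory sequence of Sox10 is active, as in otic epithelium, glia and melanocytes; cells outside that domain keep an unrecombined gene. The labels do not say whether the groups were littermates, and no Sox10-Cre group without floxed alleles was analysed here. Because the targeted gene was higher, not lower, in the group that should lack it (values below), that group is called the libraries labelled cKO, and every direction rests on that label.

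Estrogen-related receptors are nuclear receptors without a known natural hormone; they bind DNA mainly as monomers at an extended half-site and switch on genes of mitochondrial respiration, fatty acid oxidation and ion transport. Their activity is set largely by coregulators: PGC-1 alpha (Ppargc1a) and PGC-1 beta (Ppargc1b) act as protein ligands, PRC (Pprc1) is the relative linked to cell growth, Perm1 is a target and partner of this axis in muscle, and RIP140 (Nrip1) recruits repressors. In the inner ear, Esrrb is known for its role in the endolymph-secreting marginal cells of the stria vascularis and is a human deafness gene, and Esrrg is known from sensory and neural cells and has been linked to hearing.

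Of the 8 genes, 7 had an entry in RefSeq's promoter table for GRCm38.p6; Ppargc1b was the exception. The 250 bases before each listed start were searched on both strands for the core of the receptors' half-site, AAGGTCA, and for its longer form TCAAGGTCA, whose last letters are the core. Esrrg has 4 listed starts, Esrrb and Nrip1 have 2 each, and the counts below sum all transcripts of a gene. The core was found in 1 of these windows, that of Perm1, where 4.08% of all 32851 windows hold it; the longer form was in none, where 0.387% of all windows hold it. The windows were also searched for CGTCA, the half-site of CREB, the factor known to switch Ppargc1a on through cyclic AMP. The window of Ppargc1a held 1 match and that before the first listed start of Esrrb held 2, while the other windows of the 7 genes held none. Of all windows, 17.8% hold at least 1. A match describes letters, not binding. The window before the most upstream start of Esrrg is printed because it belongs to the targeted gene, that of Perm1 because it holds the core, and that of Ppargc1a because this gene had the largest difference between groups among the coregulators. All are on GRCm38.p6, on chromosomes 1, 4 and 5 in that order, with matches in capitals. The starts are those of RefSeq. In the GENCODE M21 annotation used for the gene symbols, Esrrg begins at base 187608791 and Perm1 at base 156215868, each inside its printed window.
Esrrg (chr1.0:187608756.0-187609005.0, plus strand): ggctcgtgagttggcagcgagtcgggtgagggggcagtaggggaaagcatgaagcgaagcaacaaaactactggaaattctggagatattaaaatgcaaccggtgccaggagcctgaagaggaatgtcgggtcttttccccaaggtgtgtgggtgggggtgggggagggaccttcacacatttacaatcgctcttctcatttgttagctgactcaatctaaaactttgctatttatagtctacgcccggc
Perm1 (chr4.0:156215677.0-156215926.0, plus strand): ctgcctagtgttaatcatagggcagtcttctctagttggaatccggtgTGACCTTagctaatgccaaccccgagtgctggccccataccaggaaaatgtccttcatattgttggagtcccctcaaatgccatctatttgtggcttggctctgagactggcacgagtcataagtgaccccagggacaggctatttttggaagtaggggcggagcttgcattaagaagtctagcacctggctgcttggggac
Ppargc1a (chr5.0:51567726.0-51567975.0, minus strand): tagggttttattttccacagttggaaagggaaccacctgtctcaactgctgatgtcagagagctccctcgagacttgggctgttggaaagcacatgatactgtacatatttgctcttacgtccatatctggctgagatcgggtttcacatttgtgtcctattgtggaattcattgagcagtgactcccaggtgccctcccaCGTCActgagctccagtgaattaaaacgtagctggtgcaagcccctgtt

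How abundant each receptor is was read from the deposited FPKM values, which are fragments per kilobase of gene length, scaled by library size. Esrrb was the most abundant receptor per length in every library of both groups. It was at 24.4, 18.9, 26.045, 25.3 and 17.7 FPKM in controls 1 to 5 and at 22.1, 26.7, 29.6, 29.7 and 25.1 FPKM in the libraries labelled cKO 1 to 5. Control 2 and control 5 were the lowest and the ranges overlap. The FPKM of Esrrb was 2.42 ± 0.364 times that of Esrrg in controls and 1.93 ± 0.549 times in the libraries labelled cKO (mean ± SD, n = 5 per group), and above 1 in all 10 libraries.

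Esrrg, the targeted gene, lay well below Esrrb. It was at 9.01, 7.65, 9.77, 10.4 and 9.84 FPKM in controls 1 to 5 and at 17.5, 15.4, 12.6, 11.4 and 15.1 FPKM in the libraries labelled cKO. All 5 libraries labelled cKO were above all 5 controls, with control 2 the lowest of all 10. Esrra, the receptor most widely tied to energy metabolism, was at 11.1, 11.4, 9.29, 8.94 and 9.57 FPKM in controls and at 10.5, 8.78, 10.5, 9.66 and 9.22 FPKM in the libraries labelled cKO. Its ranges overlap almost entirely, and control 2, lowest for Esrrg, was highest for Esrra.

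The order of Esrrg and Esrra differed between the groups. In controls the deposited FPKM of Esrrg was 0.944 ± 0.200 times that of Esrra and above it in 3 of 5 libraries, so these neighbours in the order did not differ beyond their spread. In the libraries labelled cKO the ratio was 1.49 ± 0.278, above 1 in 5 of 5 (mean ± SD, n = 5 per group). The control order depends on the gene length used: the deposited values imply 2539 bp for Esrra, where the merged exons of GENCODE M21 span 4387 bp. With the annotated length Esrra was at 5.83 ± 0.655 FPKM in controls and 5.62 ± 0.434 FPKM in the libraries labelled cKO, and Esrrg was above it in all 10 libraries, by 1.63 ± 0.345 and 2.57 ± 0.480 times. Either way Esrrb was first.

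**Figure D1:**
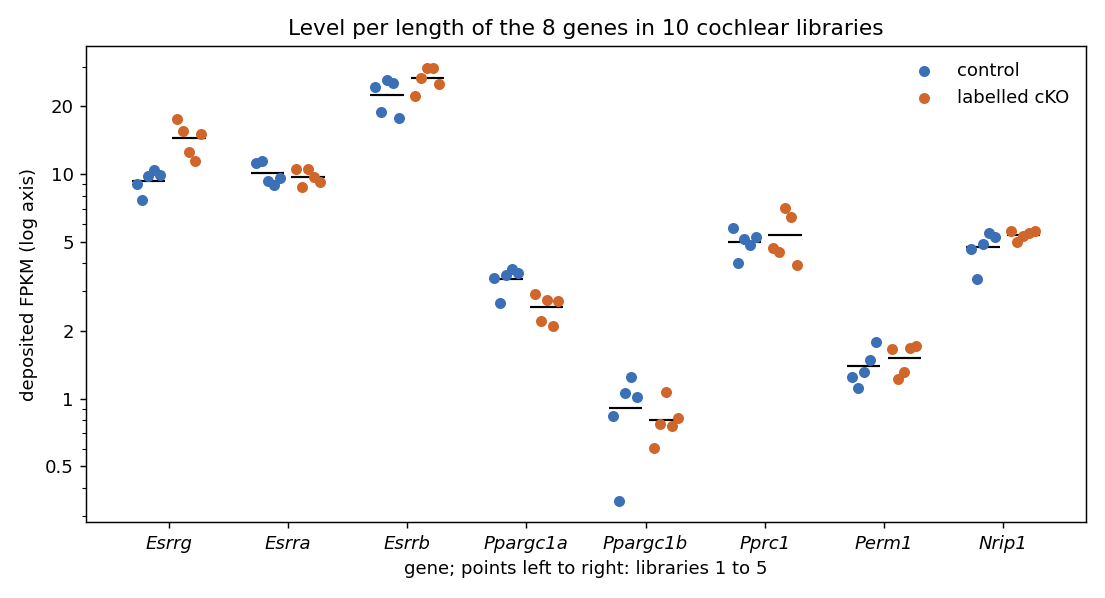
Deposited FPKM of the 8 genes on a log axis; each point is 1 library (control blue, labelled cKO orange, libraries 1 to 5 from left to right) and each line a group mean. Esrrb is highest and Ppargc1b lowest, and the groups are fully apart for Esrrg alone.

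As a share of the summed FPKM of the 3 receptors, Esrrg held 20.2%, 20.1%, 21.7%, 23.2% and 26.5% in controls 1 to 5 and 34.9%, 30.3%, 23.9%, 22.4% and 30.5% in the libraries labelled cKO. The share was 6.04 percentage points higher on average in the libraries labelled cKO, with overlapping ranges (control 5 lay above cKO 3 and cKO 4) and an exact two-sided permutation p of 0.0635, where 0.00794 is the smallest that 5 against 5 libraries allow. Esrra held 24.3 ± 4.14% in controls and 19.2 ± 1.37% in the libraries labelled cKO, and Esrrb held 53.3 ± 4.41% and 52.5 ± 5.55% (mean ± SD, n = 5 per group). The summed FPKM of the receptors was 37.1 to 45.1 in controls and 49.4 to 52.6 in the libraries labelled cKO, without overlap. The test of the Esrrg share passed the threshold in 3 of 10 repeats with 1 library left out, with exact permutation p of 0.0476 without control 5, 0.0476 without cKO 3 and 0.0317 without cKO 4. Control 5 had the highest share of the controls, and cKO 3 and cKO 4 the lowest of their group. Leaving out any of them widens the difference by construction, so these p lend no support.

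**Figure D2:**
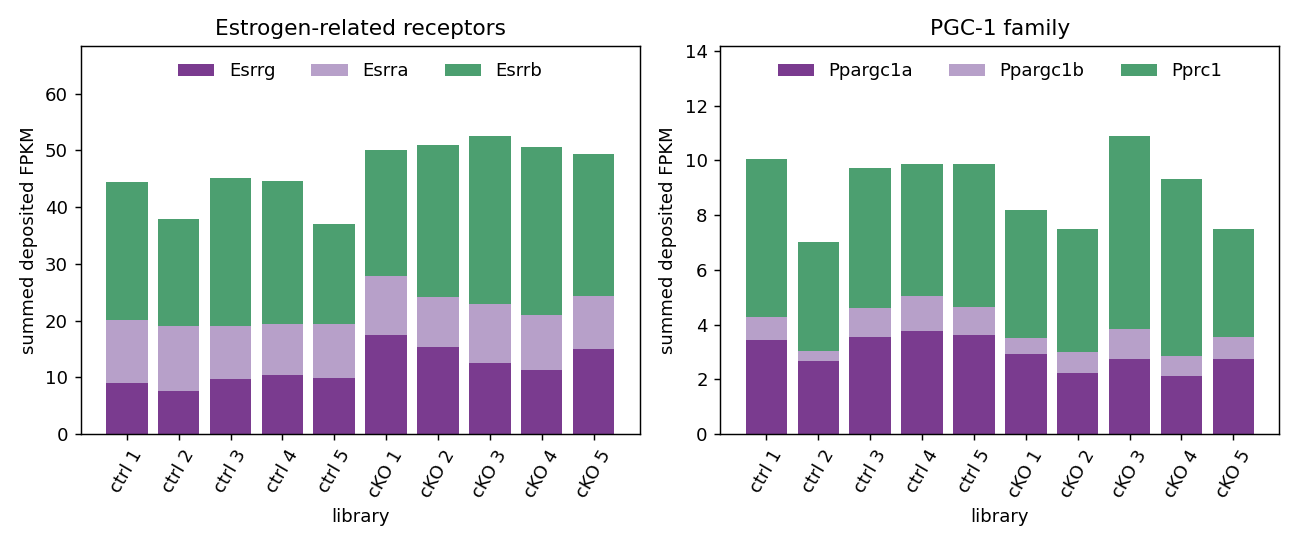
Stacked deposited FPKM of the receptors (left) and of the PGC-1 family (right) in each library, on axes from 0. The receptor sums of the libraries labelled cKO, 49.4 to 52.6, all exceed those of controls, while the PGC-1 sums overlap and Pprc1 is the tallest segment in every library.

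Among the coactivators, Pprc1 was the most abundant and Ppargc1b the least. Pprc1 was at 5.76, 4.01, 5.11, 4.84 and 5.22 FPKM in controls and at 4.66, 4.49, 7.08, 6.45 and 3.95 FPKM in the libraries labelled cKO. Its libraries labelled cKO were the more scattered, with cKO 3 and cKO 4 above every control and cKO 5 below every control. The deposited values imply a length of 7516 bp for Pprc1 against 6284 bp in the annotation, and with the latter its means were 5.96 and 6.37 FPKM. Ppargc1a, the inducible coactivator of mitochondrial biogenesis, was at 3.43, 2.67, 3.54, 3.78 and 3.61 FPKM in controls and at 2.92, 2.23, 2.75, 2.11 and 2.73 FPKM in the libraries labelled cKO. The groups overlap only through control 2, whose value lies below those of cKO 1, cKO 3 and cKO 5.

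Ppargc1b was at 0.839, 0.352, 1.07, 1.25 and 1.02 FPKM in controls and at 0.606, 0.772, 1.07, 0.753 and 0.823 FPKM in the libraries labelled cKO. Control 2 was the lowest, with 51 counts where the other 9 libraries held 81 to 181. Ppargc1a was 4.31 ± 1.87 times as abundant per length as Ppargc1b in controls and 3.28 ± 0.901 times in the libraries labelled cKO (mean ± SD, n = 5 per group). As a share of the 3 coactivators, Ppargc1a held 36.7 ± 1.62% in controls and 29.9 ± 6.11% in the libraries labelled cKO, with overlapping ranges.

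Perm1, known from striated muscle, was low throughout. It was at 1.25, 1.12, 1.31, 1.49 and 1.79 FPKM in controls and at 1.66, 1.22, 1.31, 1.68 and 1.72 FPKM in the libraries labelled cKO, from 158 to 276 counts a library. The ranges overlap, with control 2 lowest and control 5 highest. The level of skeletal muscle RNA was low too: 9 muscle markers summed to 2.99 to 4.76 FPKM in controls and 3.43 to 4.18 FPKM in the libraries labelled cKO, and Ckm, Myh3 and Myh8 stayed under 0.1 FPKM in every library. Nrip1, the corepressor, was at 4.62, 3.39, 4.89, 5.46 and 5.23 FPKM in controls and at 5.55, 4.99, 5.29, 5.43 and 5.58 FPKM in the libraries labelled cKO. Control 2 was the lowest, and the libraries labelled cKO sat within a narrow band, with cKO 1 and cKO 5 above the highest control.

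In controls the order of mean FPKM was Esrrb, Esrra, Esrrg, Pprc1, Nrip1, Ppargc1a, Perm1 and Ppargc1b. Neighbours whose ranges overlapped were Esrra with Esrrg, Pprc1 with Nrip1, Nrip1 with Ppargc1a, and Perm1 with Ppargc1b. In the libraries labelled cKO the order was Esrrb, Esrrg, Esrra, Nrip1, Pprc1, Ppargc1a, Perm1 and Ppargc1b, and only Nrip1 with Pprc1 overlapped. These orders hold for the deposited lengths. With the annotated lengths the mean of Pprc1 (5.96 and 6.37 FPKM) was above that of Esrra (5.83 and 5.62 FPKM) in both groups, and the ranges of Pprc1, Esrra and Nrip1 overlapped in both.

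The question of the design, what differs when the floxed gene meets Sox10-Cre, was put to all 8 genes in a test over 17937 genes with enough counts; all 8 were among them. Of the 8 genes, 1 (Esrrg) was called at an edgeR adjusted p under 0.05, where 0.619% of all tested genes were called, and 1 (Esrrg again) had groups without overlap in CPM (counts scaled by library size), where 2.84% of all tested genes had none. Esrrg rose from 58.4 ± 6.34 to 89.8 ± 15.2 CPM (mean ± SD, n = 5 per group), a 1.54-fold difference, with a log2 fold change of 0.62 (SE 0.117, 95% interval 0.37 to 0.87) and an edgeR adjusted p of 0.0259; the exact two-sided permutation p of its log2 CPM was 0.00794, the smallest that 5 against 5 libraries allow. The gene-level count takes in reads from every exon of Esrrg, including those outside a floxed segment. By itself it cannot show whether a segment was lost. In 7 of 10 fits with 1 library left out the edgeR adjusted p of Esrrg passed above 0.05, to at most 0.0992 without cKO 2, and with the replicate number as a block it was 0.0562.

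No paralogue or coregulator passed the test. The largest difference among them was that of Ppargc1a, which was at 22.7, 17.96, 23.4, 25.1 and 24.1 CPM in controls and at 19.3, 14.7, 18.2, 13.97 and 18.3 CPM in the libraries labelled cKO. edgeR put the log2 fold change of Ppargc1a at -0.42 (SE 0.119, 95% interval -0.68 to -0.17; adjusted p 0.192). DESeq2 on the same 10 libraries also gave -0.42, with a DESeq2 adjusted p of 0.0513, just above the threshold. Without control 2 the groups did not overlap, the log2 fold change was -0.51 and the edgeR adjusted p 0.0230. Control 2 was the lowest control for Ppargc1a, so leaving it out widens the difference by construction, and that p lends no support. With any 1 library left out, the edgeR adjusted p ran from 0.0230 to 0.428. Ppargc1a thus stood opposite in sign to Esrrg. Per length, Esrrg was 2.62 to 2.87 times as abundant as Ppargc1a in the 5 controls and 4.56 to 6.94 times in the libraries labelled cKO; this ratio was chosen after its values were seen and was not tested.

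Among the cell type markers, the 7 markers of Schwann cells and satellite glia summed to 400.4 to 530 FPKM in controls and 300.1 to 428 FPKM in the libraries labelled cKO, with 0 of 7 called where 0.619% of all tested genes were. Their log2 fold changes had the median -0.47. Control 2, the control with the least Ppargc1a, had the highest sum of all 10. The lowest sum was that of cKO 4, which had the least Ppargc1a of all 10. Markers of brain glia and neurons summed to 13.5 to 16.9 FPKM in controls and 10.3 to 14.7 FPKM in the libraries labelled cKO, with 4 of 6 tested called, beside the same 0.619%. The log2 fold changes of those 6 had the median -1.25. The sum of the brain markers was lowest among controls in control 2 (13.5 FPKM) and lowest of all 10 in cKO 2 (10.3 FPKM). In cKO 1, which had the most Ppargc1a of its group, it was 12.3 FPKM, below cKO 3, cKO 4 and cKO 5. The summed FPKM of 9 spiral ganglion neuron markers was 243 to 274 in controls and 153 to 299 in the libraries labelled cKO, with 2 of 9 called and a median log2 fold change of -0.16. In tissue RNA, fewer cells of a type and less RNA per cell cannot be told apart, and the part of these markers in the difference of Ppargc1a was not tested.

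For the other genes the intervals bound what the design could see. Esrrb had a log2 fold change of 0.24 (95% interval -0.0097 to 0.50) with an edgeR adjusted p of 0.536, and Esrra one of -0.06 (-0.27 to 0.15) with 0.870. Markers of strial marginal cells, the cells Esrrb is known from, summed to 160.5 to 218 FPKM in controls and 202 to 226 FPKM in the libraries labelled cKO, with 0 of 6 called. These markers were lowest in controls 2 and 5, as Esrrb was. Among the libraries labelled cKO they were lowest in cKO 5, while Esrrb was lowest in cKO 1, where they summed to 213 FPKM. Their part was not tested. Nrip1 had a log2 fold change of 0.18 (-0.049 to 0.42) with an edgeR adjusted p of 0.622, and 0.078 without control 2. The values were 0.12 (-0.21 to 0.46) for Perm1, 0.091 (-0.23 to 0.42) for Pprc1 and -0.17 (-0.74 to 0.40) for Ppargc1b, with edgeR adjusted p of 0.822, 0.865 and 0.857. Ppargc1b, from 51 to 181 counts a library, had the widest interval. Exons of Esrra share 73 bp with Trmt112 and those of Pprc1 share 177 bp with Ldb1, both on the opposite strand, and the use of strand in counting is not given in the sources used here.

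**Figure D3:**
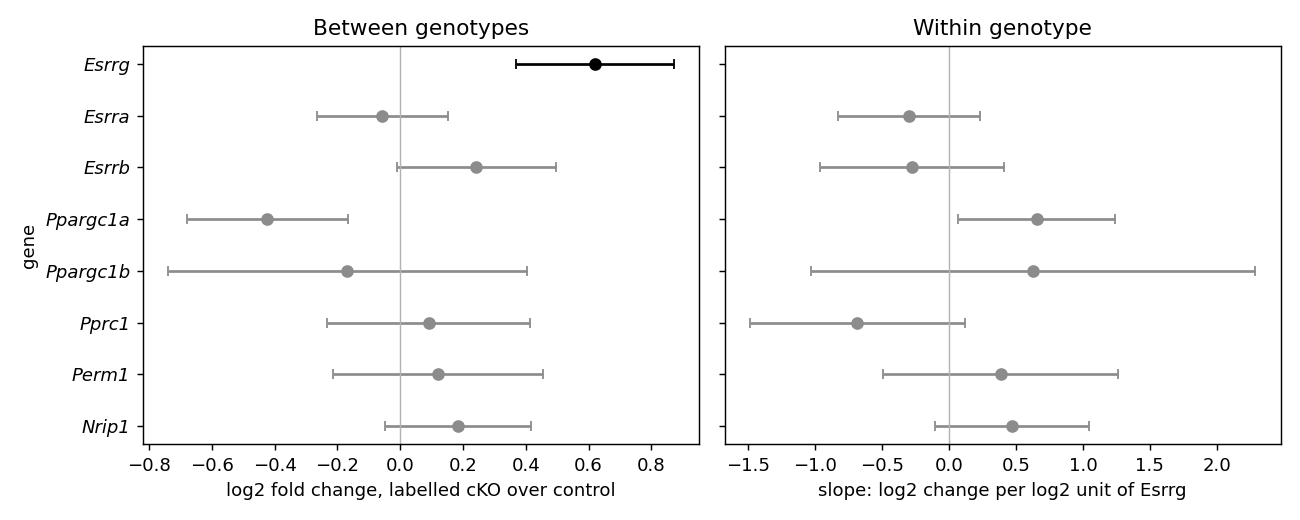
Left: log2 fold change of the libraries labelled cKO over controls; right: slope of each gene on Esrrg within genotype; points are edgeR estimates, bars 95% intervals, and black marks an adjusted p under 0.05. Esrrg, at 0.62, is the only black point, and Ppargc1a lies below 0 on the left and above 0 on the right.

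Whether the coregulators vary with Esrrg from animal to animal was asked within genotype, because Esrrg itself separates the groups and a correlation over all 10 libraries would mix the 2 questions. Each library's log2 CPM was taken as its deviation from the mean of its group. Esrrg deviated most in cKO 4 (-0.33), cKO 1 (0.30) and control 2 (-0.26). Of 7 relations examined, those of Ppargc1a and Nrip1 had an exact permutation p under 0.05 before any adjustment.

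The deviation of Ppargc1a had the sign of that of Esrrg in 7 of 10 libraries, with deviations of -0.32 in control 2 and -0.26 in cKO 4 at the low end and 0.20 in cKO 1 at the high end. Over the 10 deviations Pearson's r was 0.70 (exact permutation p = 0.0323 over 14400 rearrangements within genotype) and Spearman's rho 0.73 (exact permutation p = 0.0320). Without cKO 4 and control 2, the 2 libraries farthest from the median of Esrrg, r was 0.20 (exact permutation p = 0.623). The r over both groups thus depends on those libraries. The controls stood in the same order for both genes, with or without control 2. Opposite signs were found in cKO 2 (Esrrg 0.11, Ppargc1a -0.19), in cKO 3 (-0.18 and 0.12) and, near 0, in control 1 (-0.051 and 0.012). With 1 library left out r was 0.56 to 0.86, and its exact permutation p was under 0.05 in 3 of 10 repeats. In the fit over all genes the slope of Ppargc1a was 0.65 log2 units per log2 unit of Esrrg (95% interval 0.066 to 1.24), with an edgeR adjusted p of 0.471.

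For Nrip1, r was 0.54 (exact permutation p = 0.0467) and rho 0.49 (exact permutation p = 0.133). Without cKO 4 and control 2 its r was 0.46 (exact permutation p = 0.234), and without control 2 alone 0.28. Its r was thus nearly as large without both libraries, though its p no longer passed, and smaller without control 2. Control 2 had the lowest Nrip1, at a deviation of -0.44, while in the libraries labelled cKO the deviations of Nrip1 spanned only -0.11 to 0.07. Its slope was 0.47 (95% interval -0.11 to 1.05) with an edgeR adjusted p of 0.569.

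The other relations had exact permutation p of at least 0.178 with all 10 libraries. Pearson's r was 0.34 for Perm1, 0.31 for Ppargc1b, -0.27 for Esrrb, -0.46 for Esrra and -0.46 for Pprc1, with rho of 0.18, 0.19, -0.22, -0.49 and -0.48. Without cKO 4 and control 2, r was 0.51, -0.51, -0.52, -0.37 and -0.79 in that order. With 1 library left out, the r of Esrra was -0.79 to -0.24. Its exact permutation p was under 0.05 in 1 of 10 repeats, at 0.0097, and at most 0.535. Those of Perm1, Ppargc1b, Esrrb and Pprc1 were under 0.05 in 0 of 10. The libraries of the groups were not arranged alike. For Pprc1, cKO 4 and cKO 3, which had the least Esrrg of their group, had the highest deviations of their group (0.31 and 0.44), while control 2, with the least Esrrg of the controls, had the lowest (-0.29). For Esrrb the same libraries deviated by 0.161, 0.159 and -0.21. Whether the relations differ between the groups was not tested, and 5 libraries a group are too few for a correlation of their own. The r of Ppargc1b changed sign without cKO 4 and control 2; control 2 deviated by -1.198, the largest deviation of any of the 8 genes. Of all 17936 genes tested for a slope on Esrrg, 0 were called (0% of the tested genes) by edgeR, 1802 had an unadjusted p under 0.05, limma-voom called 0 and DESeq2 called 57. Among the 7 genes, 1 (Ppargc1a) had an unadjusted slope p under 0.05, at 0.0320, where 10.0% of all genes did.

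**Figure D4:**
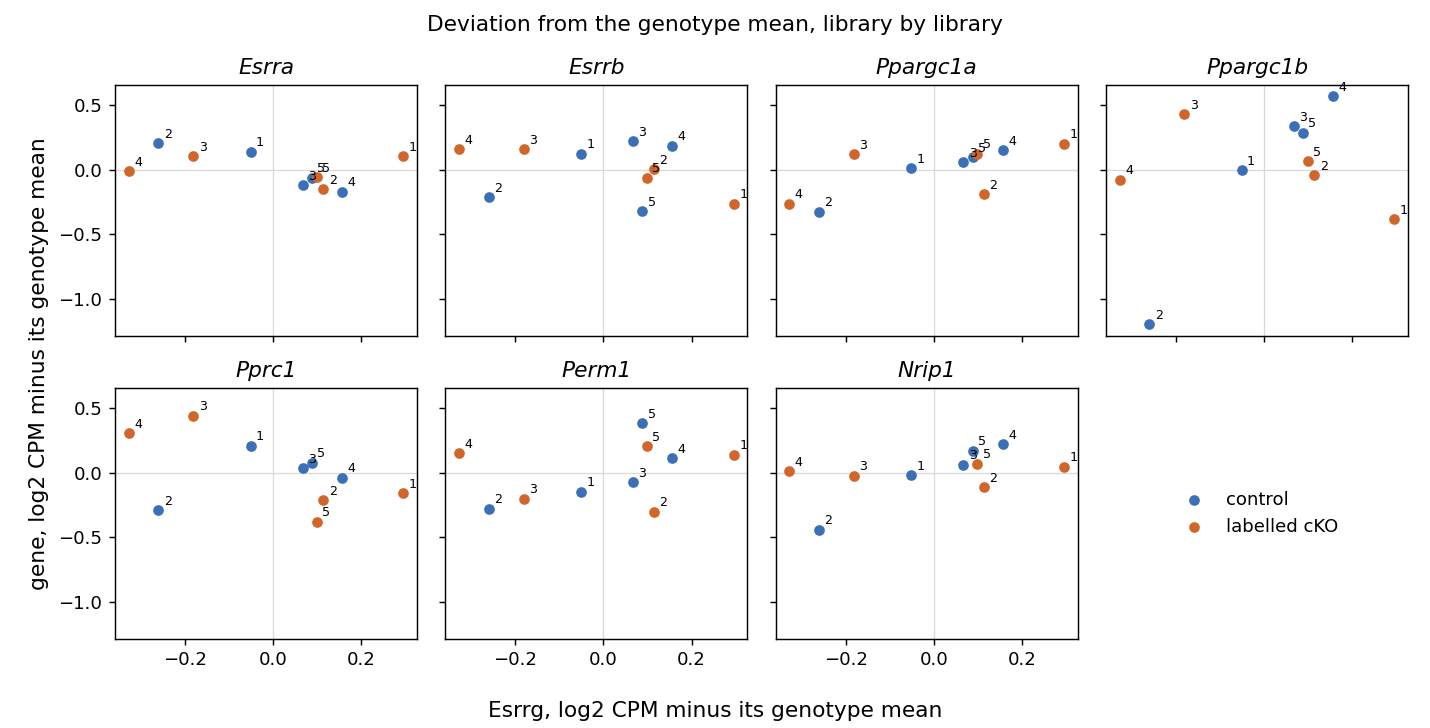
Each panel plots a gene's deviation of log2 CPM from its genotype mean against that of Esrrg; points are libraries (control blue, labelled cKO orange) with their replicate numbers. Control 2 and cKO 4 are at the left edge, low for Ppargc1a, and control 2 lies far below the rest for Ppargc1b at -1.198.

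The libraries with extreme Esrrg also differed in markers of neurons. The spiral ganglion markers summed to 299 FPKM in cKO 1, which had the most Esrrg, and to 153 FPKM in cKO 4, which had the least of the libraries labelled cKO, but to 274 FPKM, the most of any control, in control 2, which had the least Esrrg of all. Their part in the relations was not tested. Among 14047 protein-coding genes with a mean of at least 1 CPM, those whose deviations were most like those of Esrrg over the 10 libraries were Atp6v0a1, a proton pump subunit (r = 0.97), Plpp3, a lipid phosphatase (0.97), Dnm1, the dynamin of synaptic vesicle retrieval (0.97), Vwa5b2 (0.96) and Tmem132e (0.93). The most opposite were Gins3, of the replication helicase (-0.97), Spon2 (-0.97), Ifrd2 (-0.96), Amd1, of polyamine synthesis (-0.95), and Rp2 (-0.95). None of these 10 genes had a slope with an edgeR adjusted p under 0.05; the lowest was 0.0979, for Spon2. Ppargc1a ranked above 96.3% of these genes and Nrip1 above 89.2%, while Pprc1 ranked above 16.4%.

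Genes known to be switched on by these receptors and PGC-1 were lower more often than not in the libraries labelled cKO, but 1 was called. Of 35 listed targets, 31 had enough counts, 23 of them with negative and 8 with positive log2 fold changes, a median of -0.14 beside -0.0072 for all tested genes. All tested genes had 9276 negative and 8661 positive ones. Of the 31, 9 had an unadjusted edgeR p under 0.05, where 9.65% of all tested genes did. The groups did not overlap in CPM for 3, where 2.84% of all tested genes had no overlap. The 1 call in 31 stands beside 0.619% of all tested genes. It was Fabp3, the fatty acid carrier of oxidative muscle and heart. It was at 16.7, 35.5, 22.9, 19.8 and 20.6 CPM in controls and at 14.8, 12.3, 12.0, 7.92 and 8.96 CPM in the libraries labelled cKO, where every value lay below every control. edgeR put the log2 fold change of Fabp3 at -1.05 (SE 0.206; adjusted p 0.0320); the adjusted p went above 0.05 in 7 of 10 fits with 1 library left out, to at most 0.116 without cKO 5; 81 bp of its exons are shared with Zcchc17 on the opposite strand. The summed glial markers were also highest in control 2 (530 FPKM) and lowest in cKO 4 and cKO 5 (300.1 and 307 FPKM), the libraries with the most and the least Fabp3. Blood markers summed to 903 to 3725 FPKM in controls, highest in control 2, and to 563 to 1644 FPKM in the libraries labelled cKO, where their log2 fold changes had the median -0.80 and 0 of 6 were called. The part of either in the levels of Fabp3 and the other targets was not tested.

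The highest targets, Cox6a1 and Atp5b of the respiratory chain and ATP synthase, were at 270.2 ± 71.1 and 217 ± 21.3 FPKM in controls and at 213 ± 22.1 and 191 ± 8.42 FPKM in the libraries labelled cKO (mean ± SD, n = 5 per group), with edgeR adjusted p of 0.466 and 0.511. Without control 2 the targets' median was -0.10, with 22 of 31 negative. The targets known from muscle and brown fat, Cpt1b, Cox8b, Ckmt2 and Ucp1, fell below the count filter. With Esrrg as the covariate 0 of the 31 were called, and the median slope was -0.12, with 11 positive.

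The wider nuclear receptor coregulators had more positive than negative differences, and none was called with all 10 libraries. Of 23 listed, 21 were tested, 16 with positive and 5 with negative log2 fold changes, beside 8661 positive and 9276 negative over all tested genes. Their median was 0.079, which was 0.018 without control 2. The 2 most abundant were the corepressor Ctbp1, at 74.9 ± 4.89 FPKM in controls and 74.1 ± 5.72 FPKM in the libraries labelled cKO, and Pnrc2, at 60.8 ± 5.02 and 59.3 ± 1.85 FPKM (mean ± SD, n = 5 per group). Prox1, a repressor partner of Esrra, was chosen after its value without control 2 was seen, so that value lends it no support. Its log2 fold change was -0.53 and its edgeR adjusted p 0.269, while without control 2 they were -0.66 and 0.0193. With any 1 library left out its edgeR adjusted p was 0.0193 to 0.453. Of its exons, 133 bp are shared with the antisense gene Prox1os. Prox1 is also among the supporting cell markers used here. These, Prox1 included, summed to 355 to 437 FPKM in controls and 375 to 418 FPKM in the libraries labelled cKO, and their part was not tested. Nr0b1 and Nr0b2, orphan receptors that repress others, were below the filter.

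Of 17 partner transcription factors of PGC-1, 16 were tested, with 0 called and a median of 0.12. Positive log2 fold changes were found for 12, beside 8661 positive and 9276 negative over all tested genes. The most abundant were Thra, the thyroid hormone receptor alpha, at 65.4 ± 2.71 and 69.5 ± 9.26 FPKM, and Rxra, the retinoid X receptor alpha, at 28.5 ± 3.22 and 33.4 ± 2.75 FPKM in controls and in the libraries labelled cKO (mean ± SD, n = 5 per group). The 16 regulators upstream of PGC-1 had a median of 0.018 (-0.011 without control 2) with 0 called; Twist1, an inhibitor of PGC-1 alpha, led them at 53.1 ± 6.09 and 52.6 ± 5.36 FPKM, followed by the acetyltransferase Kat2a at 20.7 ± 1.196 and 21.2 ± 1.43 FPKM. The 10 genes that keep and transcribe the mitochondrial genome had a median of -0.013 with 0 called, and their highest members, Tfam and Tfb2m, were at 10.7 ± 1.42 and 8.57 ± 0.470 FPKM in controls and 10.1 ± 0.419 and 8.67 ± 0.742 FPKM in the libraries labelled cKO. In none of these lists was a gene called for a slope on Esrrg.

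**Figure D5:**
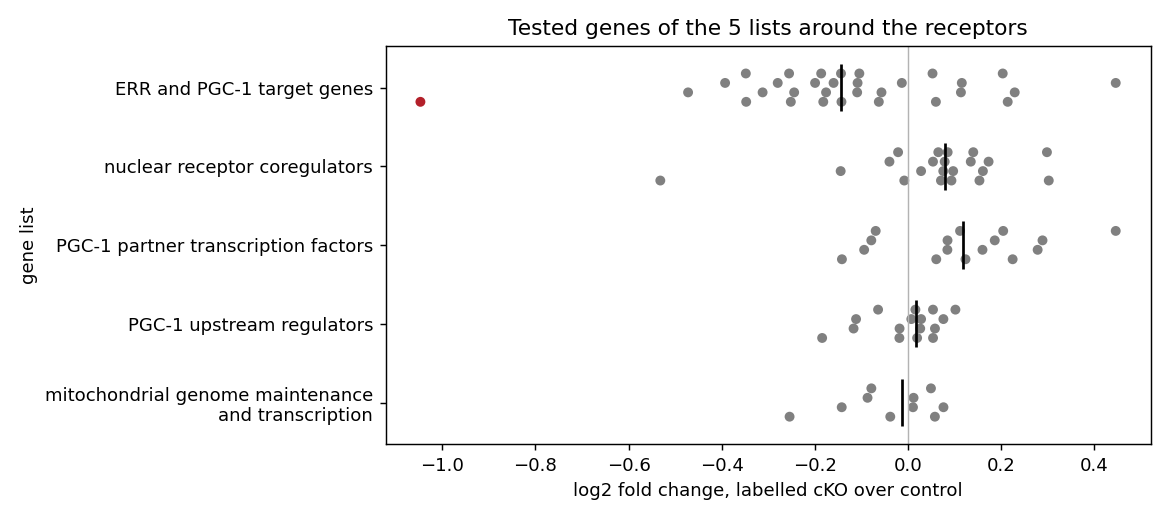
Log2 fold change, libraries labelled cKO over controls, of each tested gene of the 5 lists (points; red, edgeR adjusted p under 0.05) with each list's median as a black line. Most targets lie left of 0 with Fabp3 farthest at -1.05, and the other lists spread around 0.

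The libraries held 33487089 to 41779836 counts each. Markers of hair cells, supporting cells, spiral ganglion neurons, Schwann cells, marginal cells, melanocytes and mesenchyme of the cochlea were all counted in every library. Of the other cell types, macrophage markers summed to 77.7 to 122 FPKM over the 10 libraries, markers of cartilage and bone to 1548 to 1973 FPKM and markers of melanocytes and intermediate cells to 60.6 to 83.3 FPKM. Each of 5 adipocyte markers stayed under 0.1 FPKM. Control 2 had the lowest value among controls for Esrrg, Ppargc1a, Ppargc1b, Pprc1, Perm1 and Nrip1, which is why results are given without it. For these genes its omission raises the control mean by construction.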

How the data were processed

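RNA was isolated, enriched for polyadenylated molecules and read as paired reads of 150 bp, per the labels' protocols. The authors deposited counts per Ensembl gene and FPKM per gene. STAR 2.5, HTSeq 0.61, DESeq2 2 and the build mm10 are named in the submitters' processing notes; annotation, strand setting and filters are not given in the sources used here. The deposited FPKM equalled the deposited counts over 1 length per gene and 1 factor per library, and the implied lengths matched merged GENCODE M21 exons within 0.1% for 95.3% of 13928 well-counted genes, so symbols came from that annotation (GRCm38); 54495 of 54532 gene IDs matched.

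Counts were filtered with filterByExpr (minimum 10), scaled by TMM and tested with edgeR 4.0.16 (robust quasi-likelihood F-test, genotype as the only term), with Benjamini-Hochberg adjustment over all tested genes; intervals use its standard errors and degrees of freedom. A second edgeR fit added the log2 CPM (prior count 2) of Esrrg centred within genotype. Exact permutation tests were two-sided. For the relations to Esrrg no adjustment over the 7 genes alone is given; the adjusted p over all genes stands beside them. Fits were tested on simulated data. The simulated slopes on Esrrg were far steeper than those of the 7 genes, so this does not show that slopes of their size could be found. Alternatives used limma 3.58.1, DESeq2 1.42.0, other scaling, filters, pseudocounts of 1 and 0.1 on log2 FPKM, and omission of each library. Same-numbered libraries of the 2 groups correlated by 0.021 to 0.179 in their deviations, and different-numbered ones by -0.289 to 0.171. The labels give no pairs, so the main fit did not use the numbers. An alternative fit took the replicate number as a block. The members and lists were chosen with earlier results of these data known. Named list genes are those called and the 2 highest in each list; the genes most like Esrrg are the 5 highest and 5 lowest correlations. P-values measure the spread between single animals.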

Additional observations from a re-analysis of the deposited data

How the results depend on the processing

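The log2 fold change of Esrrg stayed positive in all settings, but its call did not hold in several: the value was 0.61 with a replicate block (edgeR adjusted p 0.0562), 0.57 by limma on log2(FPKM + 1) and 0.61 with a pseudocount of 0.1 (limma adjusted p 0.0504 and 0.0501), and 0.54 to 0.70 with 1 library left out. Genes called between genotypes went from 111 to 307 with DESeq2, to 101 with the replicate block, and, with 1 library left out, to 52 to 73 without control 1, 3, 4 or 5 or cKO 2, 4 or 5, to 93 and 109 without cKO 3 and cKO 1, and to 197 without control 2. Genes with a slope on Esrrg went from 0 to 1 with upper-quartile factors, 5 with no filter on low counts, 57 with DESeq2, 1 with the replicate block and 0 to 4 with 1 library left out (4 without cKO 2, otherwise 0). The difference in the Esrrg share was 4.41 to 7.54 points with 1 library left out, and 5.99 with the annotated lengths, an alternative chosen after seeing the data; the difference in the log2 ratio of Esrrg to Esrra, each as FPKM + 1, which replaces the share, was 0.61 (exact permutation p 0.00794). The number of genes with an unadjusted exact p under 0.05 for a relation to Esrrg was 2, and 1 by Spearman, 1 with the replicate block, 0 without the 2 farthest libraries and 0 to 2 with 1 library left out. With 1 library left out the log2 fold change of Pprc1 ranged from -0.032 (reversed, without cKO 3) to 0.18, the slope of Esrrb from -0.63 to 0.037 (reversed, without cKO 1), and the slope and correlation of Ppargc1b from -0.42 to 1.61 and -0.28 to 0.59 (both reversed without control 2); the correlation of Ppargc1b was -0.51 without the 2 farthest libraries. The causes were not tested. No other log2 fold change, slope or correlation of a member changed sign in the settings run. The settings for the gene lists, Fabp3 and Prox1 were chosen after seeing the data; with no filter on low counts Fabp3 had an edgeR adjusted p of 0.0699. With the replicate block the share of Esrrg had an exact p of 0.125, where 5 pairs cannot give less than 0.0625; of 5 controls, 3 correlated best with their own number. Ppargc1b and Perm1, with at most 181 and 276 counts a library, are the members depth limits most.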
